A study of Mus musculus with 18 samples.

Results

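Integrins are the receptors with which fibroblasts hold the extracellular matrix. The 10 integrin subunit genes described here are Itga1, Itga4, Itga5, Itga8, Itga9, Itga11, Itgav, Itgb1, Itgb3 and Itgb5. They were chosen by name as the subunits known from fibroblasts, with earlier results of these data known. They are 10 of the 55453 gene symbols in the count table. All 10 passed the filter on low counts, which kept 16170 genes for testing. The cells were GFP+ cells of the Tcf21 lineage, isolated by flow sorting from the part of the ventricles nearest the apex. The mice carried Tcf21-MerCreMer and Rosa-mTmG and had received tamoxifen at P1, and the paper names C57BL/6J as the purchased strain. Tcf21 marks resident cardiac fibroblasts, so GFP marks cells in which its promoter drove Cre while tamoxifen was present, and their descendants. The 18 libraries form 6 groups of 3. P2 baseline and P10 baseline came from un-manipulated pups, P2 sham and P2 resected from pups operated at P2 and collected 3 days later, and P10 sham and P10 resected from pups operated at P10 and collected 3 days later. Resected hearts had lost the apex, and every group carried the same alleles and received tamoxifen. The younger hearts were digested for a shorter time than the older hearts, so that digestion time and age cannot be told apart. The labels give neither the sex nor the number of pups behind a library, so p-values measure the spread between libraries, which may be technical.

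Each integrin is a pair of 1 alpha and 1 beta chain, and the pair sets which ligand is bound. The beta 1 chain pairs with the alpha 1 and alpha 11 chains to bind collagen, with alpha 5 to bind fibronectin, with alpha 8 to bind nephronectin and other ligands holding the RGD motif, with alpha 9 to bind tenascin-C and SVEP1, and with alpha 4 to bind VCAM1 and fibronectin. The alpha v chain pairs with beta 1, beta 3 or beta 5, among others, and binds vitronectin, fibronectin and the latent form of TGF-beta, which such integrins can release under tension. Integrin alpha 11 beta 1 is known as a collagen receptor of fibroblasts and myofibroblasts.

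The sequences just upstream of 3 of these genes are shown because Itga11 and Itgb5 were the members whose transcripts changed with age, and Itgb1 was the most abundant member. They are the RefSeq bases on GRCm38.p6 that lie before both the RefSeq and the GENCODE transcription start, read 5′ to 3′ on the strand of the gene, which is the plus strand for all 3. Of the 10 members, 9 had an entry, and Itgb3 had none. Capitals mark matches, on either strand, to the GC box GGGCGG (its reverse complement is CCGCCC), the TATA box TATAAA and the TEAD site GGAATG.
Itga11, chr9:62677605-62677825: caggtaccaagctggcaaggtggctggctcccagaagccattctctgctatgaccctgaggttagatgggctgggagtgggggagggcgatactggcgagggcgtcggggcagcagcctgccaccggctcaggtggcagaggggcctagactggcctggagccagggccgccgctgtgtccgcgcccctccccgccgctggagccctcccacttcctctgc
Itgb5, chr16:33829415-33829664: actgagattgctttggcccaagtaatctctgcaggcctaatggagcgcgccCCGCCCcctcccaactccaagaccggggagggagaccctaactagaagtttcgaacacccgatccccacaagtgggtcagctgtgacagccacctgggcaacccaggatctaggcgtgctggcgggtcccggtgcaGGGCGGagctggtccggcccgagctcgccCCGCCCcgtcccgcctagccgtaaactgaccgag
Itgb1, chr8:128685404-128685653: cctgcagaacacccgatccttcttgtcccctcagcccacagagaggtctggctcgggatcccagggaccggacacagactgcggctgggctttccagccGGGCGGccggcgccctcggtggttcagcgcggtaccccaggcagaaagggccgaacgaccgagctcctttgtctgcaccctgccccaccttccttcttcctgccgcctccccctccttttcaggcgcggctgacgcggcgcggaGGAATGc
The Itgb5 window held 3 GC boxes, 199, 63 and 34 bases before the start (counted from the first letter of the match as printed). The Itgb1 window held 1 GC box, 151 bases before its start, and 1 TEAD site 7 bases before it. A GC box was present in 32.7% of 32851 RefSeq promoter windows of 250 bases, a TEAD site in 12.6% and a TATA box in 12.4%. In the Itga11 window, which is 221 bases long, none of these letters was found, and in windows of that length the shares were 28.7%, 11.5% and 9.99%. GC made up 69.2% of the Itga11 window, 65.2% of the Itgb5 window and 68% of the Itgb1 window, against a median of 52.4% over all windows of 250 bases. A match describes letters only, and nothing was measured on these promoters.

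The libraries held between 10462737 and 22980554 counted reads. Levels below are CPM, read counts relative to the TMM-scaled size of each library, except where they are said to be per kilobase. The label of the sort was checked against marker genes. Tcf21 averaged 251 to 331 CPM in the 6 groups, and the 10 fibroblast markers summed to 57683 to 121608 CPM per library. The 8 epicardial markers summed to 0 to 57.4 CPM. RNA of other cells was present at lower levels. The 11 macrophage markers summed to 5.29 to 1077 CPM per library, the 9 endothelial markers to 185 to 539 CPM, and the 9 mural cell markers (pericytes and smooth muscle) to 1198 to 2717 CPM. Libraries of a group also differed in the balance of long and short transcripts, described below by an index for each library. In bulk RNA, fewer cells of a type and less RNA per cell cannot be told apart.

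Sorted fibroblasts were dominated by the transcripts of 3 subunits. Per kilobase of exon, the median level over the 18 libraries was 340 CPM for Itgb1, the partner of most alpha chains listed here, 155 for Itgb5 and 48.2 for Itga5, the alpha chain of the fibronectin receptor. In each of the 6 groups these 3 stood in this order, and the ranges of neighbouring genes did not overlap. A middle tier followed, of Itga9 (9.38 CPM per kilobase), Itgav (8.81), Itga1 (7.96), Itgb3 (7.59) and Itga8 (6.97), and inside it the order changed from group to group. Neighbours within that tier overlapped in every group. Itga11 had a median of 3.28 CPM per kilobase and Itga4 of 0.0630. In the 3 P2 groups the Itga11 range lay below that of the gene next above it without overlap, and in the 3 P10 groups it overlapped with the middle tier. These levels use the union of exons in GENCODE M21, and with the longest transcript in its place Itgav (mean over libraries 16.1 in place of 10.6) and Itga1 (13.8 in place of 8.16) would stand higher.

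**Figure D1:**
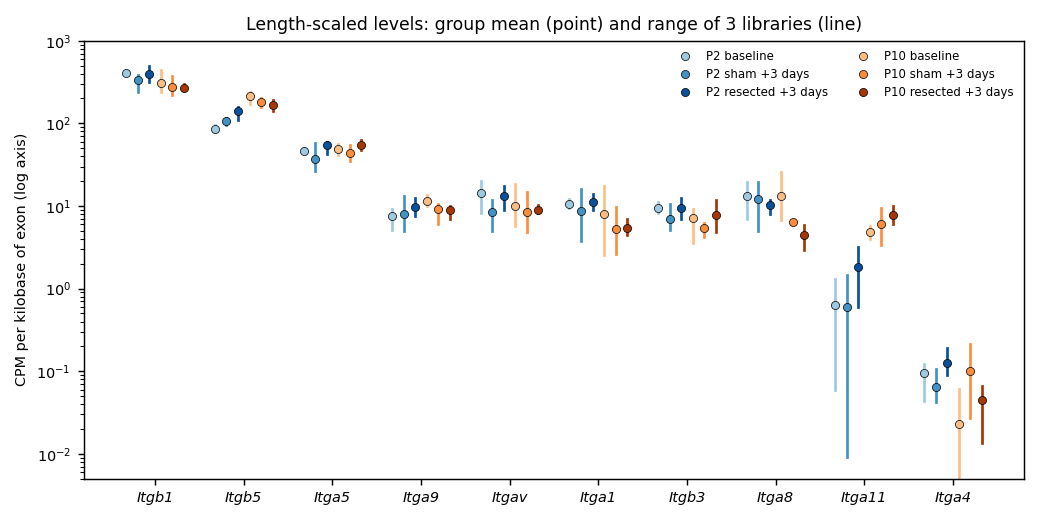
The y axis gives CPM per kilobase of exon on a log scale, with points for group means and lines for the range of the 3 libraries of each group (the Itga4 range at P10 baseline reaches 0). Itgb1, Itgb5 and Itga5 lie above the other subunits in each group, and Itga11 is the gene whose P2 and P10 groups lie farthest apart.

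Itga4, which encodes the alpha 4 chain, was close to the limit of these libraries. It had between 10 and 45 counts in the P2 libraries and between 0 and 60 in the P10 libraries, and its highest level was 3.00 CPM. No read was counted in P10 baseline replicate 1, where a count of 0 allows up to 3 counts. Its ligand gene Vcam1 was at 129 to 324 CPM in every library.

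**Figure D2:**
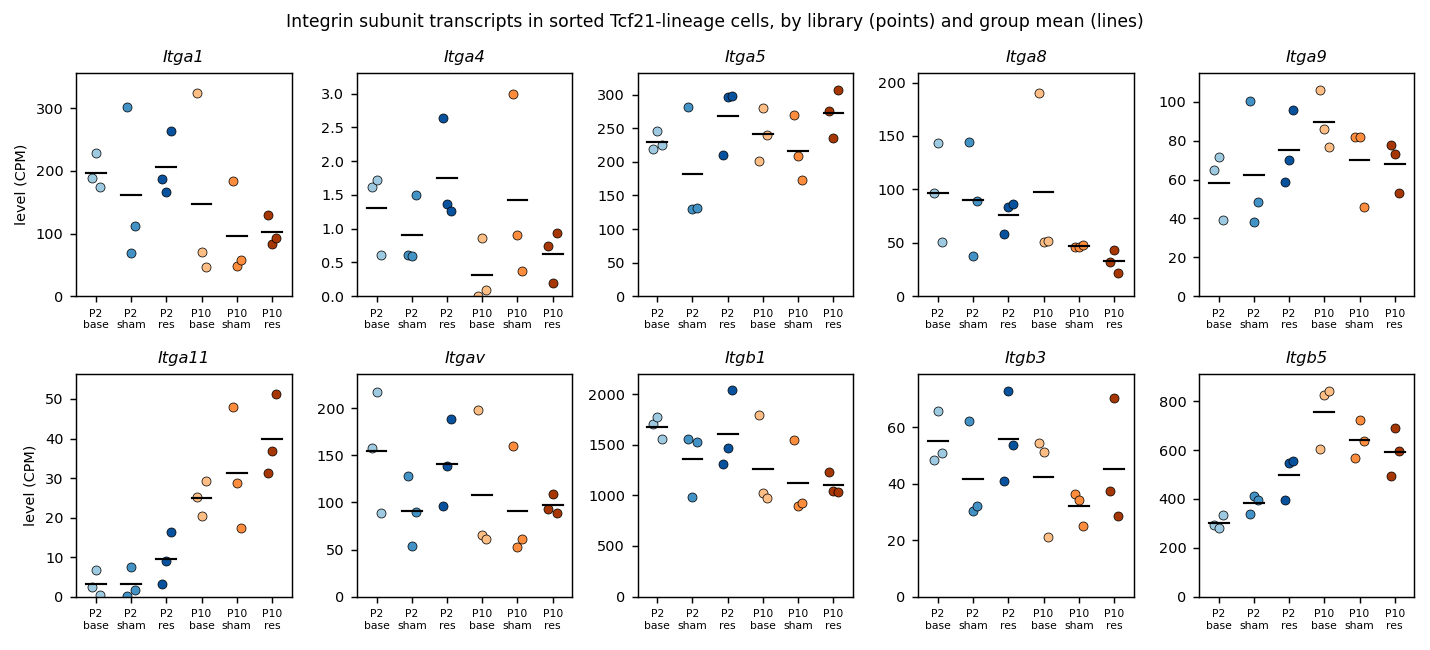
Each panel shows 1 gene, with CPM on a linear axis from 0, a point for each of the 3 libraries of a group and a line for the group mean. Itga11 and Itgb5 are higher in the P10 groups, whereas in Itga1, Itga8, Itgav and Itgb1 single libraries such as P10 baseline replicate 1 stand far above their group.

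The study compared hearts able to regenerate (P2) with hearts that are not (P10), and the first question was which integrin subunits differ between un-manipulated fibroblasts of the 2 ages. Itgb5, the beta chain of the vitronectin receptor alpha v beta 5, was higher at P10. Its level was 291, 282 and 336 CPM in the 3 P2 baseline libraries and 606, 824 and 843 CPM in the 3 P10 baseline libraries. All P10 values lay above all P2 values. The fold change was 2.5 (log2 1.32, standard error 0.20, adjusted p = 0.00129). Here and below, tests are edgeR quasi-likelihood tests, and p-values are adjusted by Benjamini-Hochberg over all genes tested, unless another tool is named. Itgb5 was the only 1 of the 10 members called in this comparison, in which 4.38% of all genes were called. It was called without each of the 6 libraries in turn (adjusted p at most 0.0132) and under every alternative tried but the following. P10 baseline replicates 2 and 3, the 2 libraries highest in Itgb5, were also those lowest in mitochondrial reads, at 0.253% and 0.198%, against 0.442% to 1.07% in the other 16 libraries. The titles of these 2 libraries also end in the letter P, unlike those of the other 16, and what it marks is not known. Without both, an alternative added after the data were seen that leaves 1 P10 baseline library and takes it to vary like the other groups, Itgb5 was not called at baseline (log2 1.01, adjusted p = 0.117), and 0.611% of all genes were.

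Itga11, the collagen-binding alpha chain, had the largest log2 fold change between the baselines but did not pass the test. It was at 2.53, 6.79 and 0.305 CPM at P2 and at 25.2, 20.3 and 29.2 CPM at P10. The groups did not overlap, and the estimate was 2.94 on the log2 scale (standard error 1.02, adjusted p = 0.118, edgeR). It ran from 2.42 without P2 baseline replicate 3 to 4.10 without P2 baseline replicate 2. DESeq2 gave an estimate of 2.97 with an adjusted p of 0.0263. Itga9, a receptor chain for tenascin-C, was also without overlap, at 39.1 to 71.4 CPM at P2 and 76.8 to 106 CPM at P10 (log2 0.62, standard error 0.35, adjusted p = 0.367). The other 7 members overlapped between the ages, with log2 fold changes from -1.99 for Itga4 to 0.07 for Itga5. The median over the 10 members was -0.19, beside -0.03 over all genes tested.

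The same age difference was then taken after sham surgery and after resection. Itga11 kept its order, at 0.0464, 7.42 and 1.76 CPM in P2 sham libraries against 47.9, 28.7 and 17.3 CPM in P10 sham libraries (log2 3.34, standard error 1.04, adjusted p = 0.0981). After resection it was at 3.05, 8.97 and 16.4 CPM at P2 and 31.3, 36.8 and 51.2 CPM at P10 (log2 2.07, standard error 0.98, adjusted p = 0.569). In neither pair did the groups overlap, and in neither was Itga11 called. Itgb5 was at 340, 412 and 397 CPM in P2 sham libraries and at 567, 725 and 636 CPM in P10 sham libraries, again without overlap (log2 0.75, standard error 0.20, adjusted p = 0.0536). In resected hearts it was at 394, 549 and 554 CPM at P2 and at 495, 689 and 595 CPM at P10, which overlapped (log2 0.25, standard error 0.20, adjusted p = 0.898). No member was called after sham surgery, where 3.18% of all genes were called, or after resection, where 0.86% were. After sham surgery 5 of the alternatives called Itgb5, and without P2 sham replicate 2 Itga11 was called (log2 5.18, adjusted p = 0.0307).

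In resected hearts 4 further members had all P10 values below all P2 values, and none was called. How many of all genes were separated in this way was not counted, here or in the other comparisons. Groups without overlap are therefore a description only. Itga8, the nephronectin receptor chain, was at 58.5, 83.5 and 86.3 CPM at P2 and at 32.5, 43.6 and 21.9 CPM at P10 (log2 -1.22, standard error 0.52, unadjusted p = 0.0315, adjusted p = 0.479). Itga1 was at 187, 167 and 263 CPM at P2 and at 129, 83.6 and 92.3 CPM at P10 (log2 -1.02, standard error 0.64, adjusted p = 0.776). Itgb1 was at 1309, 1464 and 2040 CPM against 1231, 1041 and 1033 CPM (log2 -0.54, standard error 0.27, adjusted p = 0.619). The 4th was Itga4, at counts near its floor. Of the 10 members, 7 had a negative fold change in this comparison, with a median of -0.42, beside -0.04 over all genes.

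The age difference of Itgb5 was thus 1.32 at baseline and 0.75 after sham surgery on the log2 scale. The difference between them was -0.58 (standard error 0.29, unadjusted p = 0.0592, adjusted p = 0.779, edgeR), so that it was not shown to differ. No member was called in this interaction, in which 0% of the genes tested were called (edgeR, 1067 genes at an unadjusted p under 0.05). After resection the age difference of Itgb5 was 0.25, with a 95% interval of -0.18 to 0.67. At baseline that interval was 0.89 to 1.75. The difference between baseline and resection was not tested.

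With all 9 P10 libraries set against all 9 P2 libraries, both genes were called. The level of Itga11 was 0.0464 to 16.4 CPM at P2 (median 3.05, n = 9) and 17.3 to 51.2 CPM at P10 (median 29.2, n = 9). Every P10 library lay above every P2 library. The fold change was 6.88 (log2 2.78, standard error 0.58, adjusted p = 0.00354). P2 counts of Itga11 were low, at 1 to 298 per library against 296 to 959 at P10. The level of Itgb5 was 282 to 554 CPM at P2 (median 394) and 495 to 843 CPM at P10 (median 636), and the ranges overlapped. Its fold change was 1.71 (log2 0.77, standard error 0.12, adjusted p = 0.000226). Both genes were called without any 1 of the 18 libraries, Itga11 with log2 fold changes between 2.59 and 3.41 and Itgb5 between 0.72 and 0.82. Without both P10 baseline libraries low in mitochondrial reads they were called too (Itga11 log2 2.80, adjusted p = 0.0118, and Itgb5 log2 0.68, adjusted p = 0.00407). In this comparison 13.5% of all genes were called.

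**Figure D3:**
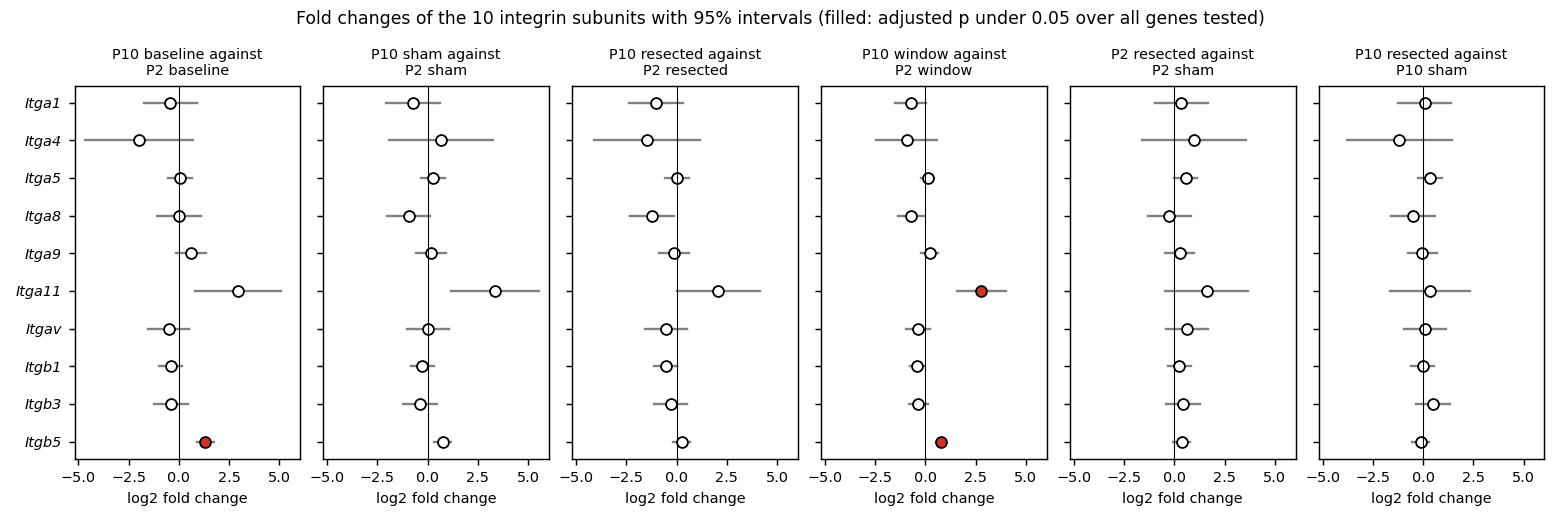
The x axis gives the log2 fold change from edgeR, with 95% intervals as lines, for 10 members in 6 comparisons. Filled points were called at an adjusted p under 0.05, which are Itgb5 in the baseline comparison and Itga11 and Itgb5 in the comparison of all P10 with all P2 libraries.

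The other collagen receptor chain, Itga1, had a negative estimate. Its level was 69.5 to 302 CPM at P2 (median 187) and 47.1 to 325 CPM at P10 (median 83.6), which is -0.72 on the log2 scale (standard error 0.37, adjusted p = 0.209). Itga8 was at 37.2 to 145 CPM at P2 (median 86.3) and 21.9 to 190.4 CPM at P10 (median 46.1), a difference of -0.72 (standard error 0.30, adjusted p = 0.120). Itgb1 was at 984 to 2040 CPM at P2 (median 1559) and 897 to 1791 CPM at P10 (median 1033), a difference of -0.41 (standard error 0.16, adjusted p = 0.0969). None of the 3 was called, and in each the highest P10 value was that of P10 baseline replicate 1. Without that library 5 members were called in place of 2, and Itga1 (log2 -1.16, adjusted p = 0.0132), Itga8 (-1.03, adjusted p = 0.00912) and Itgb1 (-0.52, adjusted p = 0.0199) were the added ones, all lower at P10. That fit called 17.4% of all genes, against 13.5% with every library.

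Itgav, which pairs with several beta chains, was at a median of 129 CPM at P2 and 88.6 CPM at P10 (log2 -0.35, standard error 0.28, adjusted p = 0.468). Itgb3, its partner in the alpha v beta 3 receptor, was at 51.1 and 36.4 CPM (log2 -0.35, standard error 0.23, adjusted p = 0.345). Itga5 was at 225 and 240 CPM (log2 0.11, 95% interval -0.22 to 0.45) and Itga9 at 64.8 and 77.8 CPM (log2 0.21, 95% interval -0.21 to 0.64). For these 4 genes the ranges of the 2 ages overlapped.

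The balance of the beta chains was taken as a share. Of the summed per-kilobase level of Itgb1, Itgb3 and Itgb5, Itgb5 made up 16.9% ± 2.28 (SD, n = 3) at P2 baseline and 41.4% ± 12.03 (SD, n = 3) at P10 baseline. The share of Itgb1 was 81.2% ± 2.19 and 57.3% ± 11.9, and that of Itgb3 was at most 2.59% in any library. Over all libraries the Itgb5 share was 15.1% to 32.0% at P2 (median 22.7%, n = 9) and 27.6% to 49.4% at P10 (median 42.1%, n = 9). The means of the 2 ages lay 17.1 percentage points apart, and the ranges overlapped. In P10 baseline the share was 27.6% in replicate 1, inside the P2 range, and 47.3% and 49.4% in the 2 libraries lowest in mitochondrial reads. Among the 7 alpha chains, Itga11 made up 0.00766% to 3.10% at P2 and 4.05% to 10.5% at P10, without overlap. Both shares restate on another scale the genes called above, so no test was made on them. Of these 7 listed alpha chains Itga5 held the largest part in each group, with group means from 49.9% to 60.7%. Subunits outside the list, such as Itga7 (mean 144 CPM at P10 baseline), do not enter these shares. Shares of transcripts are not shares of receptors on the cell surface, which were not measured.

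**Figure D4:**
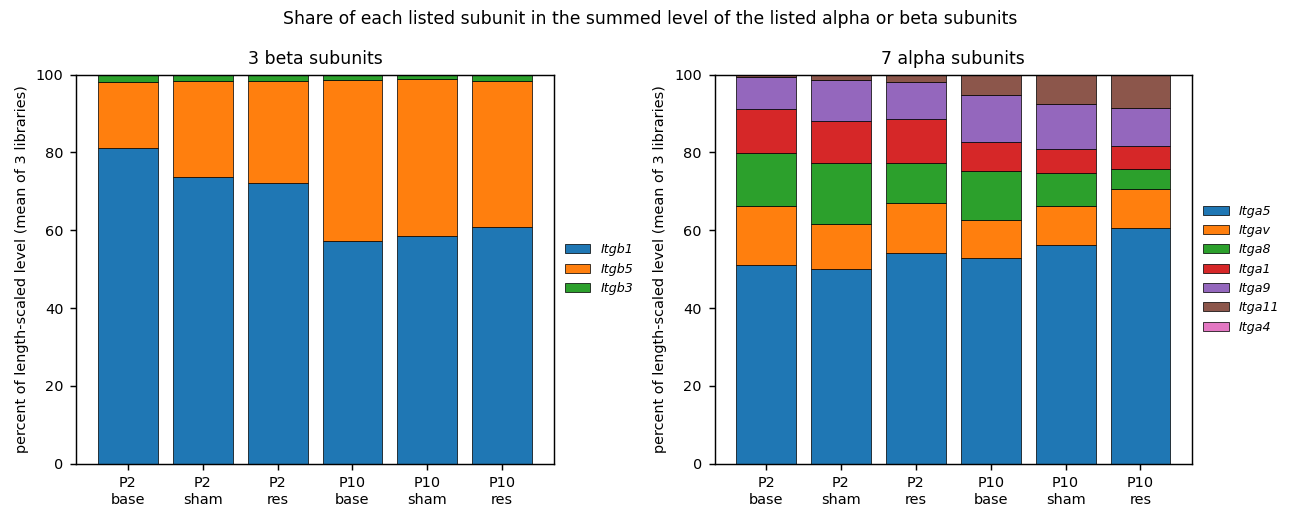
Stacked bars give the mean percent that each subunit held of the summed per-kilobase level of the 3 beta chains (left) or the 7 alpha chains (right) in each of the 6 groups. The Itgb5 part is 16.9% at P2 baseline and 41.4% at P10 baseline, and the Itga11 part is visible in the P10 groups.

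The second question was whether resection changed these receptors. No member was called between P2 resected and P2 sham fibroblasts, where 0% of all genes were called (edgeR, 730 genes at an unadjusted p under 0.05), and the smallest adjusted p was 1. The log2 fold changes ran from -0.25 for Itga8 to 1.61 for Itga11, which moved from 0.97 without P2 resected replicate 3 to 3.44 without P2 sham replicate 2. Itga5 was at 282, 130 and 132 CPM after sham surgery and at 210, 296 and 298 CPM after resection (log2 0.56, 95% interval -0.02 to 1.15, unadjusted p = 0.0581). Itgb5 was 0.38 higher on the log2 scale (95% interval -0.04 to 0.81), Itgav 0.64, Itgb3 0.43, Itga1 0.35, Itga9 0.27 and Itgb1 0.24, each with overlap. Of the 10 members, 9 had a positive fold change and the median was 0.40, beside 0 over all genes. From P2 baseline to P2 sham, which shares the sham libraries, 8 of the 10 were negative, with a median of -0.30 beside 0.03 over all genes. P2 sham replicate 2 held the lowest level of the 9 P2 libraries for 8 of the members. Without it 8 members were positive and the median was 0.30. Without P2 sham replicate 1, the other extreme, all 10 were positive and the median was 0.82. The long-transcript index described below averaged -0.18 in P2 sham and 0.28 in P2 resected libraries, and with it as a covariate 9 were positive with a median of 0.28.

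At P10 no member was called between resected and sham fibroblasts either, in a comparison in which 0% of all genes were called (edgeR, 661 genes at an unadjusted p under 0.05). The fold changes were positive for 5 members and negative for 5, with a median of 0.02, also 0.02 over all genes. This balance moved with single libraries, to as many as 7 positive (median 0.40) without P10 sham replicate 1 and as few as 3 positive (median -0.14) without replicate 3. Itga8 was the only member whose groups did not overlap, at 45.7, 46.1 and 47.9 CPM after sham surgery and 32.5, 43.6 and 21.9 CPM after resection (log2 -0.51, standard error 0.52, adjusted p = 1). The difference between the resection effects at P10 and P2 was called for no member (0% of all genes, edgeR, 465 genes at an unadjusted p under 0.05). The smallest unadjusted p among the members was 0.0986, for Itgb5 (log2 -0.50, standard error 0.29).

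Sham surgery against baseline, which also holds 3 days of growth, gave no call among the members at either age. At P2 0% of all genes were called (edgeR, 1229 genes at an unadjusted p under 0.05), and at P10 0.00618%, which is 1 gene. Itgb5 was at 282 to 336 CPM at P2 baseline and at 340 to 412 CPM after sham surgery, without overlap (log2 0.34, standard error 0.20, adjusted p = 0.737). Itga8 was at 50.5 to 190.4 CPM at P10 baseline and at 45.7 to 47.9 CPM after sham surgery, also without overlap (log2 -1.07, standard error 0.52, adjusted p = 0.682). These comparisons share their sham libraries with those of resection. Beside the counts of 0 in edgeR, DESeq2 called 32 genes between P2 resected and sham, 44 at P10, 27 in the resection interaction, 182 between P2 sham and baseline and 129 in the age interaction, and voom called 0 in each. Without the filter on low counts edgeR called 24, 76, 30, 110 and 171 genes in the same order. Between P10 sham and baseline, DESeq2 called 167, voom 1 and edgeR without the filter 151. No member was called in any of these comparisons under any alternative or without any 1 library.

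Ligands of these receptors were taken from a list of 25 matrix and cell surface genes, all of them tested. In the baseline comparison 4 were higher at P10 and none was lower, beside the 4.38% called over all genes, and the median log2 fold change was 0.32. Vtn, which encodes vitronectin, the ligand of alpha v beta 5 and alpha v beta 3, was at 2.35, 0.465 and 0.0609 CPM at P2 baseline and at 85.5, 161 and 167 CPM at P10 baseline (log2 7.12, standard error 0.72, adjusted p = 3.12e-05). The 3 P2 baseline libraries held 1 to 51 counts of it. After sham surgery it was at 12.01 to 21.2 CPM at P2 and 90.2 to 116 CPM at P10 (log2 2.62, adjusted p = 0.0150). Fbln5, which encodes the elastic fibre protein fibulin 5, rose from 214 to 284 CPM at P2 baseline to 661 to 765 CPM at P10 baseline (log2 1.57, standard error 0.21, adjusted p = 0.000389).

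Over all P10 against all P2 libraries, 6 ligands were higher and 4 lower, beside the 13.5% called over all genes. Among the lower ones was Postn, which encodes periostin (log2 -1.24, standard error 0.25, adjusted p = 0.00269), at means of 13617 CPM at P2 baseline and 7180 CPM at P10 baseline. Tnc, which encodes tenascin-C, a ligand of alpha 9 beta 1, was lower at P10 (log2 -1.46, standard error 0.28, adjusted p = 0.00148). Lama5, a laminin chain, was higher (log2 2.40, standard error 0.73, adjusted p = 0.0364), from low counts of 0 to 151 per P2 library. Edil3, which encodes a ligand of alpha v integrins, had 0 to 84 counts in the P2 libraries and 0 to 2 in the P10 libraries, and was called lower. Of the fibrillar collagens, ligands of alpha 1 beta 1 and alpha 11 beta 1, Col3a1 was higher (log2 0.65, standard error 0.13, adjusted p = 0.00269), and Col1a1 (log2 0.32, adjusted p = 0.325) and Col1a2 (0.35, adjusted p = 0.126) were not called. Fn1, the fibronectin gene, was not called (log2 -0.56, standard error 0.29, adjusted p = 0.229), and Vcam1 was lower (log2 -0.44, standard error 0.14, adjusted p = 0.0392).

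After resection at P2 the fold change was positive for 25 of 25 ligands, with a median of 0.61 beside 0 over all genes, and none was called. At P10 it was positive for 21 of 25, with a median of 0.44 beside 0.02 over all genes, and none was called. Markers of other cells moved in both directions in the same comparisons, none of them called. The macrophage markers were positive in 11 of 11 at P2 (median 1.08) and at P10 (median 1.22). The endothelial markers were positive in 8 of 9 at P2 (median 0.24) and at P10 (median 1.47), the mural markers in 8 of 9 at P2 (median 0.46) and 5 of 9 at P10 (median 0.02), and the epicardial markers in 3 of 7 at P2 (median -0.39) and 7 of 7 at P10 (median 4.28). The cardiomyocyte markers were positive in 1 of 10 at P2 (median -0.84) and 8 of 10 at P10 (median 0.38), and the platelet markers in 1 of 5 (median -1.23) and 3 of 5 (median 0.09). The long-transcript index averaged -0.18 in P2 sham and 0.28 in P2 resected libraries, and -0.22 in P10 sham and -0.0078 in P10 resected libraries. P2 sham libraries differed widely among themselves (Fn1 at 786 to 3487 CPM). The part of such cells and of the index in the ligand levels was not tested. In the comparisons of sham surgery with baseline, which share the sham libraries, 21 of 25 were negative at P2 (median -0.25) and 21 of 25 at P10 (median -0.38).

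The list of 31 adhesion components holds the proteins that tie integrins to actin and signalling, and 30 of them were tested. At baseline 2 of the 30 were higher at P10, beside 4.38% over all genes, namely Lims2 (log2 2.01, standard error 0.46, adjusted p = 0.0194), which encodes PINCH2, and Cd9 (log2 1.61, standard error 0.35, adjusted p = 0.0150), a tetraspanin that associates with integrins. In the comparison of all libraries 3 were higher (Lims2, Cd9 and Tns2) and 3 lower (Vcl, Lims1 and Actn1), beside 13.5% over all genes. Lims1, which encodes PINCH1, the paralog of PINCH2, fell by 0.74 on the log2 scale (standard error 0.14, adjusted p = 0.00184), and Lims2 rose by 1.83 (standard error 0.27, adjusted p = 0.000154). Lims1 was at 160 to 278 CPM in the P2 libraries and 90.5 to 172 CPM in the P10 libraries, and Lims2 at 20.7 to 64.7 CPM and 44.2 to 190.5 CPM. Reads shared by the paralogs could not be followed in the table. Actn1, an actinin, fell by 0.82 (adjusted p = 0.0254) and Tns2, a tensin, rose by 0.64 (adjusted p = 0.00729).

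Of 17 other integrin subunits in the table, 12 were tested. Itga7, the laminin-binding alpha 7 chain known from muscle and mural cells, was higher at P10 baseline (log2 2.93, standard error 0.35, adjusted p = 0.000179) and over all libraries (log2 1.53, standard error 0.19, adjusted p = 3.81e-05). It was at 17.4, 20.6 and 18.5 CPM at P2 baseline and at 112, 196 and 124 CPM at P10 baseline. Itga6, another laminin-binding chain, was lower over all libraries (log2 -1.77, standard error 0.34, adjusted p = 0.00179). Itgam, the macrophage alpha M chain, was called higher there from 0 to 30 counts in P2 libraries and 0 to 39 in P10 libraries, and 68.7% of its exon bases are shared with an overlapping gene.

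Some mural cell markers were higher at P10, as were Itgb5 and Itga7, at baseline and over all libraries. At baseline the summed level of the 9 mural markers was 1268 to 1420 CPM in P2 baseline and 1693 to 2355 CPM in P10 baseline libraries. Of the 9, 3 (Rgs5, Kcnj8 and Myh11) were called higher, with Rgs5 and Kcnj8 above 0 in every library. After sham surgery the sums were 1198 to 1763 CPM at P2 and 1392 to 1558 CPM at P10. Acta2, the largest part of them, averaged 670 and 443 CPM. Of the 9 markers 6 were positive there, with a median of 0.33 beside -0.07 over all genes and a smallest adjusted p of 0.0765. Between P10 resected and P2 resected libraries 3 of the 9 were positive, with a median of -0.24 beside -0.04 over all genes, and none was called. Over all libraries the same 3 mural markers were called higher at P10, Rgs5 (adjusted p = 0.0407), Kcnj8 (0.000499) and Myh11 (0.00154), and 7 of the 9 were positive (median 0.23). The sums of the 9 overlapped there, at 1198 to 2717 CPM at P2 and 1279 to 2355 CPM at P10. The macrophage markers were positive in 9 of 11 at baseline (median 0.79) with none called, and in 10 of 11 over all libraries (median 0.98) with 1 called, Itgam. Of the 9 endothelial markers 1 (Esam) was called higher at P10 baseline, with sums of 229 to 361 and 370 to 422 CPM. Tek (means of 210 and 281 CPM) and Esam (18.7 and 56.0 CPM) made up most of those sums, and 5 of the 9, among them Pecam1 and Cdh5, had a negative fold change (median -0.43). The fibroblast markers summed to 57683 to 70707 CPM at P2 baseline and to 81944 to 121608 CPM at P10 baseline, and 4 of the 10 were called higher at P10. Over all libraries 4 of them were called higher and 1, Postn, was called lower (log2 -1.24, standard error 0.25, adjusted p = 0.00269). Of all genes tested, 4.38% were called at baseline and 13.5% over all libraries. The cardiomyocyte markers summed to 315 to 1477 CPM in the P2 libraries and to 163 to 815 CPM in the P10 libraries, and 5 of the 10 were called lower over all libraries. The part of these cells in the results of the integrin genes, and of ligands such as Vtn, was not tested.

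The genes whose log2 CPM ran most like that of Itgb5 over the 18 libraries were Eln, the elastin gene (Pearson r = 0.950), Itga7 (0.948) and Chpf, a chondroitin synthase component (0.942). For Itga11 they were Gm45819 (0.929), Tmem127 (0.915) and Olfml2b (0.914). The 18 points share the age of the hearts, and these values are a description.

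Levels of several members followed a property of the libraries. The long-transcript index is the median log2 deviation of 2042 genes with transcripts of at least 6000 bases minus that of 4146 genes with transcripts of at most 2000 bases, without the members. It was 0.98 in P10 baseline replicate 1 and -0.998 in P2 sham replicate 2, and 0.14 on average at P2 and -0.08 at P10. Over the 18 libraries it correlated with the log2 CPM of Itgav (r = 0.91), Itga1 (0.90) and Itgb1 (0.78), and the coefficients for Itgb5 (-0.38) and Itga11 (-0.19) were negative. After removal of the group means they were 0.91 for Itgav, 0.95 for Itga1, 0.83 for Itgb1, -0.65 for Itgb5 and -0.21 for Itga11. Itga1 and Itgav belong to the members with the longest transcripts (10967 and 7054 bases), and Itgb1 and Itgb5 to those with the shortest (3815 and 3282 bases). Within groups, after removal of the group means, Itgav and Itgb1 (r = 0.91) and Itga1 and Itgb1 (0.90) ran together, and Itga1 and Itgb5 in opposite directions (-0.69).

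**Figure D5:**
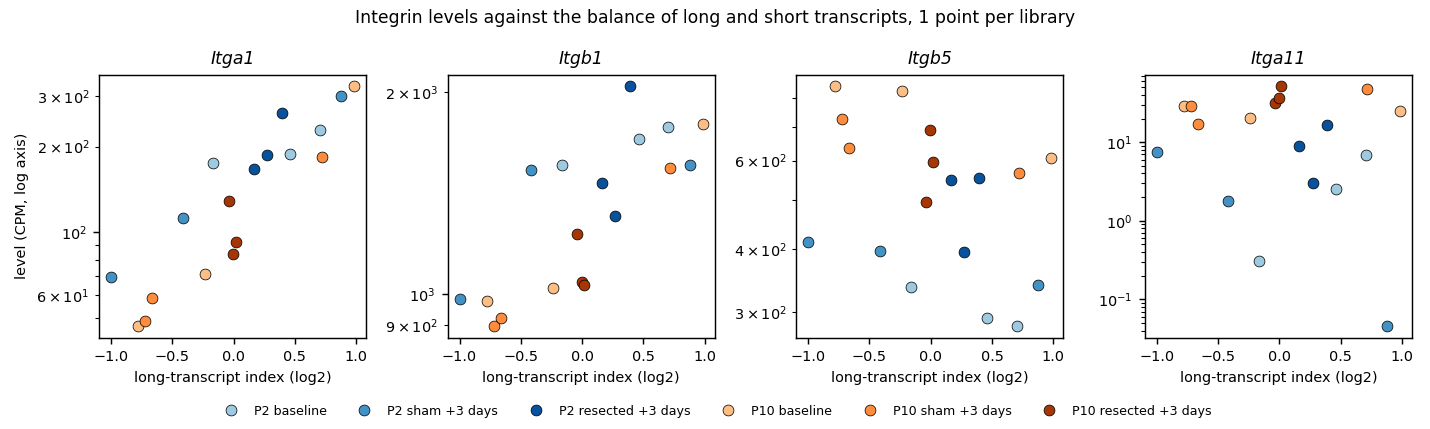
The x axis gives the long-transcript index of each of the 18 libraries on the log2 scale, and the y axis CPM on a log scale, for 4 members. Itga1 and Itgb1 climb with the index, with correlations of 0.90 and 0.78, and every P10 point of Itga11 lies above every P2 point.

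With the index as a covariate, an alternative added after the data were seen, 4 members were called between all P10 and all P2 libraries. Itgb5 (log2 0.72, adjusted p = 1.99e-05) and Itga11 (2.78, adjusted p = 0.00211) were higher, and Itga1 (log2 -0.60, standard error 0.13, adjusted p = 0.00367) and Itgb1 (-0.34, standard error 0.10, adjusted p = 0.0194) were lower at P10. This fit called 21.7% of all genes. Itgav was not called in it (log2 -0.22, adjusted p = 0.262), nor was Itga8 (-0.49, adjusted p = 0.100). What sets the index in these libraries was not tested.

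On GRCm38, Itgb5 lies on chromosome 16 from 33829665 to 33949338 and Itga11 on chromosome 9 from 62677826 to 62783982, both on the plus strand, by GENCODE M21. Neither shares exon bases with another gene. Reads were counted without regard to strand, and the genes that share exon bases with a neighbour are Itga4 (8.04%, with Cerkl), Itgav (5.90%), Itga8 (5.05%) and Itga1 (3.68%).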

How the data were processed

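RNA from GFP+ Tcf21-lineage cells was sequenced in 18 libraries, 3 per group, amplified with a SMARTer kit and read from a single end. Per the submitters' processing notes and the methods, reads were trimmed with fastp 0.20.0, mapped with STAR 2.7.0f to GRCm38.p6 and counted by featureCounts of Subread 1.6.4 on GENCODE M22 exons, per gene symbol and without strand. The deposited counts were made by the authors in this way and are not normalized. Positions and lengths here come from GENCODE M21, 1 release earlier.

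Counts were filtered with filterByExpr (minimum count 10, minimum total 15), scaled by TMM and tested with edgeR 4.0.16 in R 4.3.3, with 1 mean per group over all 18 libraries. Adjusted p-values under 0.05 were called. Standard errors are the log2 fold change over the root of the F statistic. DESeq2 1.42.0 and voom (limma 3.58.1) were alternatives. Floors cover counting error only, since the reads carry no molecular identifiers.

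The members and lists were chosen with earlier results of these data known. Named are all 10 members, up to 5 called genes per list with the largest change at baseline or over all libraries, the 3 genes most like each integrin called over all libraries, and ligands beside their receptor. Vcl and the called cell type markers were named after their values were seen.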

Additional observations from a re-analysis of the deposited data

How the results depend on the processing

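Itga11 and Itgb5 over all libraries were called under every alternative tried, and Itgb5 at baseline under every one but the fit without the 2 libraries lowest in mitochondrial reads, which called 0 members. The other counts that moved rose. At baseline (1 as reported) 2 were called without a filter on low counts (4% of all genes) and by DESeq2 (10.4%), and 5 by voom with sample quality weights (22.5%). After sham surgery (0) the count was 1 with DESeq2's size factors (3.23%), without the filter (3.15%), with voom (4.37%) and with the long-transcript index (7.87%), and 2 by DESeq2 (7.7%), and leaving out 1 library gave 0 to 1. After resection (0) it was 2, Itga8 and Itga11, without the filter (1.82%) and by voom (5.62%). Over all libraries (2) it was 4 without the filter (9.54%) and with the index (21.7%), 6 by voom (28.3%), and 2 to 5 with 1 library left out. The replicate numbers of the labels, used as a block, gave 1 member after sham surgery (Itgb5, 3.93% of all genes), 4 over all libraries (Itga1 and Itgb1 added, 17%) and a log2 fold change of -0.0965 for Itga8 at baseline. The numbers do not pair the libraries as a whole, since only 15 of 45 same-numbered pairs correlated above 0.1. In 3 of the 15 pairs of groups all 3 correlations were above 0.1, among them P2 with P10 resected and P10 baseline with P10 sham, and in those comparisons the block, like the reported fit, called no member.

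Uncalled members often turned sign when 1 library was left out. Over all libraries none of the 10 did, but 3 did at baseline, 5 after sham surgery, 2 after resection, 2 between P2 resected and sham, 4 between P10 resected and sham, and 4 between sham and baseline at each age. The baseline fold change of Itga1 ran from -1.73 to 0.00434, that of Itga5 from -0.0598 to 0.18 and that of Itga8 from -0.92 to 0.41, and after resection at P2 Itga1 ran from -0.0220 to 1.18 and Itga8 from -0.62 to 0.27. With voom, Itga8 was at -0.78 at baseline and 0.0497 after resection at P2. Without the 2 libraries lowest in mitochondrial reads, the baseline values were 0.73 for Itga1, -0.18 for Itga5, 0.36 for Itgav and 0.11 for Itgb1.

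Counts over all genes also moved by more than 1.5 times. At baseline 709 genes were called, against 1671 by DESeq2, 3645 by voom, 1155 without the filter, 1733 with the index, 295 with only those groups in the fit, 117 without the 2 libraries lowest in mitochondrial reads, and 264 (without P10 baseline replicate 2) to 1207 (without replicate 1) with 1 library left out. After sham surgery 515 were called, against 1271, 911 without the filter, 1272 with the index, 125 with only those groups, and 312 to 416 with 1 library left out. After resection 139 were called, against 499, 908, 526, 442 and 332 in the order given for baseline, and 30 to 136 with 1 library left out. Over all libraries 2183 were called, against 4569 by voom, 3506 with the index and 1306 without those 2 libraries. The causes were not tested. For Itga4, differences of several fold were not resolved, with a 95% interval at baseline of -4.68 to 0.70 on the log2 scale (edgeR).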
